A study of Caenorhabditis elegans with 8 samples.

Results

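Nuclear hormone receptors are transcription factors that pair a zinc-finger DNA-binding domain with a pocket for small lipophilic ligands such as sterols and fatty acids. The family is greatly expanded in *Caenorhabditis elegans*, largely through nematode receptors related to HNF4, a regulator of liver metabolism in mammals. Worm receptors of this family are known for roles in molting, fat use during fasting, and the response to toxins and bacteria. The genes described here carry a symbol of nhr- followed by a number. Each was represented by 1 RefSeq transcript, that whose base means had the largest sum in the 3 tables, provided that the sum was above 0. The base mean is the average of the scaled counts in the libraries that a comparison joins, as the authors computed it. This gave 238 genes, 0.853% of the 27913 genes with reads. The members with the lowest sums were nhr-101 and nhr-159, each at 0.219 in the authors' deposited tables, and the genes just outside the rule had a sum of 0.

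RNA came from whole first-stage (L1) larvae that had hatched and starved overnight in buffer, with 200 to 250 larvae per sample. The groups were spr-5 mutants (allele by101), met-2 mutants (allele n4256), double mutants with both alleles (spr-5; met-2) and the wild-type strain N2, with 2 libraries each. The enzyme made by spr-5 removes methyl groups from lysine 4 of histone H3, and that made by met-2 adds them to lysine 9. Each mutant was compared with N2 to find genes whose RNA level differs. The tables hold the authors' DESeq2 results only, and values of single libraries, with their spread, cannot be shown. Nothing states that the 2 libraries of a group came from separate cultures, so p-values measure the spread between libraries, which may be technical. The 3 comparisons share the N2 libraries and were normalized separately.

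The targeted genes were still detected. Per the authors' deposited tables, spr-5 RNA had log2 fold changes of 1.26 (SE 0.95) in double mutants and 0.90 (SE 0.74) in spr-5 mutants. That of met-2 had -0.45 (SE 0.97) in double mutants and -0.43 (SE 0.69) in met-2 mutants, per the authors' deposited tables. None had an adjusted p under 0.05. RNA of a mutated gene can persist, and these values therefore say little about the labels. Of the marker genes of tissues present in the tables, the muscle myosin unc-54 had a base mean between 67973 and 85202 in the authors' deposited tables. The intestinal esterase ges-1 lay between 147 and 204 there. The neuronal markers unc-119 and rgef-1 reached at most 1.49 and 0.655 in the authors' deposited tables, while the neuronal gene ric-4 lay between 27.7 and 37.6. The hypodermal collagen dpy-7 lay between 0.545 and 17.8 there. The muscle regulator hlh-1 was near the floor throughout, at 0.219 for spr-5 mutants, 0.233 for met-2 mutants and 0 for double mutants in the authors' deposited tables. Its 0 in double mutants is therefore not read as a loss.

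No receptor gene was called in any mutant at the authors' DESeq2 adjusted p under 0.05. In spr-5 mutants 0 of 236 tested members were called, against 0.0114% of all genes with an adjusted p. In met-2 mutants 0 of 155 were called, against 0.0579%. In double mutants 0 of 133 were called, against 0.741%. The other members had no adjusted p there, which the tables leave empty for low base means. At an unadjusted p under 0.05, 2 members were higher and 0 lower in spr-5 mutants, where the shares of all genes were 0.891% and 0.293%. In met-2 mutants 2 were higher and 2 lower, against 0.934% and 0.514% of all genes. In double mutants 3 were higher and 3 lower, against 1.78% and 1.12% of all genes. The members' own shares were 0.847% and 0% in spr-5 mutants, 0.862% and 0.862% in met-2 mutants, and 1.32% and 1.32% in double mutants. Over protein-coding genes alone the shares were 1.21% and 0.386% in spr-5 mutants, 1.31% and 0.586% in met-2 mutants, and 2.35% and 1.37% in double mutants. The counts of members are small and were not tested against either background, so they are not a result about the family.

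**Figure D1:**
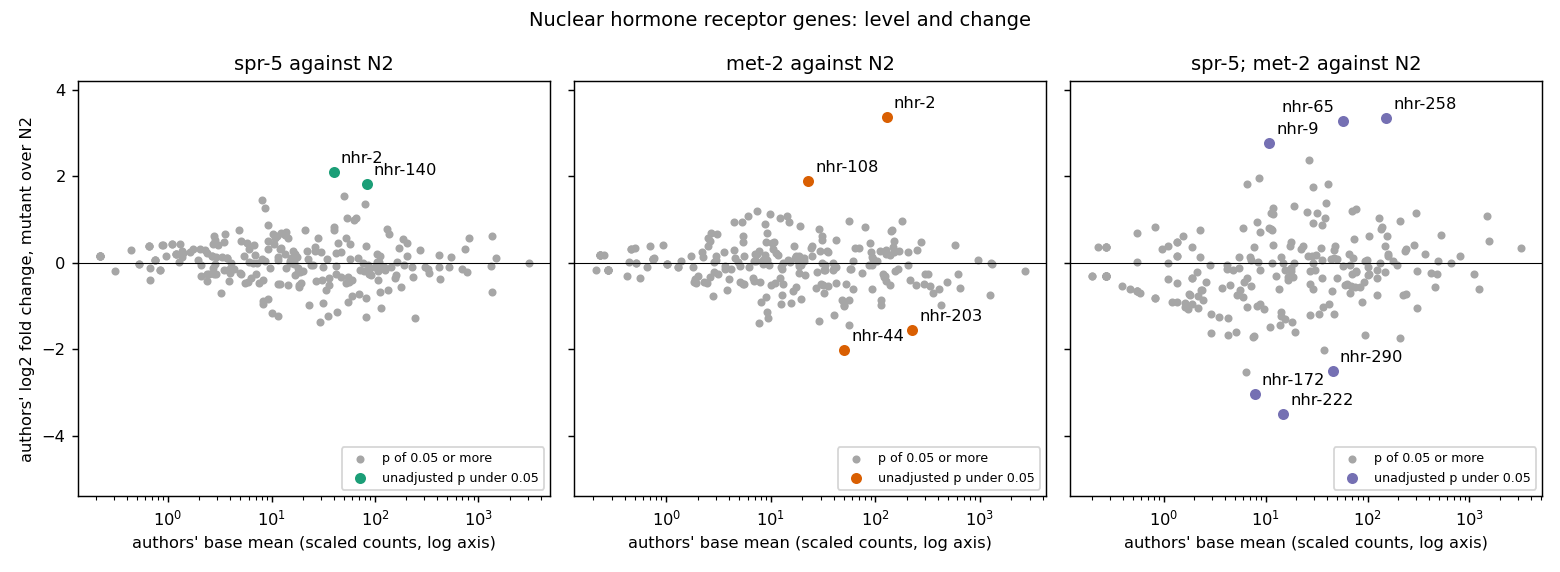
Each point is 1 receptor gene, with the authors' base mean on the x axis (scaled counts, log axis) and the authors' log2 fold change of mutant over N2 on the y axis, in 1 panel per mutant. Coloured, named points have an unadjusted p under 0.05 (2 genes for spr-5, 4 genes for met-2 and 6 genes for spr-5; met-2), and most members lie within 1 log2 unit of 0.

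Without a minimum base mean, the fold changes of the family as a whole were centred close to those of other genes. In spr-5 mutants the median log2 fold change was 0.0070 over 236 members and 0.06 over all 26275 genes that had a p there, per the authors' deposited table. In met-2 mutants it was -0.03 over 232 members and 0.01 over 25686 genes of the authors' deposited table. In double mutants it was -0.19 over 227 members and -0.18 over 24316 genes of the authors' deposited table. Changes of more than 1 log2 unit in either direction were found for 16 members in spr-5 mutants (6.78%, against 6.27% of all genes). There were 16 in met-2 mutants (6.90%, against 6.67%) and 54 in double mutants (23.8%, against 19.2%). Over protein-coding genes alone the shares were 7.69% in spr-5 mutants, 8.20% in met-2 mutants and 22.0% in double mutants. The share of members was thus below that background in both single mutants and above it in double mutants. The wider range in double mutants went with a larger standard error, whose median over members was 1.18 there, 0.82 in spr-5 mutants and 0.79 in met-2 mutants, on the log2 scale. Over all genes it was 1.17, 0.77 and 0.74 in the same order. With a base mean of at least 50, 10 of 65 members lay beyond 1 log2 unit in double mutants (15.4%, against 19.6% of all genes). The base mean includes the mutant libraries, so this minimum depends on the change itself. No test of the family against other genes was made.

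The smallest p of any member in met-2 mutants, and in spr-5 mutants too, was that of nhr-2 (NM_059288), a receptor expressed in the early embryo. The authors' deposited tables gave nhr-2 base means of 39.8 for spr-5 mutants, 128 for met-2 mutants and 10.9 for double mutants, each with N2. In met-2 mutants its log2 fold change in the authors' deposited table was 3.37 (SE 0.84, DESeq2 p = 6.33e-05, adjusted p = 0.0734). In spr-5 mutants the authors' deposited table gave it 2.10 (SE 0.88, p = 0.0172, adjusted p = 1.00), and in double mutants 0.81 (SE 1.27, p = 0.525). Its value was thus above 0 in every table and lowest where both genes were mutated, but the 95% interval in double mutants ran from -1.68 to 3.29. Whether the double mutants differ from the met-2 mutants was not tested, since the comparisons share N2 and no library values are given.

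In double mutants the smallest p was that of nhr-258 (NM_068947). Its base mean was 50.2, 17.2 and 152 in the authors' deposited tables for spr-5, met-2 and double mutants, so it was highest where both genes were mutated. The log2 fold change in the authors' deposited tables was 3.34 in double mutants (SE 1.10, DESeq2 p = 0.00249, adjusted p = 0.174), 1.53 in spr-5 mutants (SE 0.86, p = 0.0752) and 0.11 in met-2 mutants (SE 0.89, p = 0.899). For nhr-65 (NM_001029048) the authors' deposited tables gave base means of 3.98, 12.3 and 57.6 in the same order. Its log2 fold change in the authors' deposited tables was 3.27 in double mutants (SE 1.21, DESeq2 p = 0.00700, adjusted p = 0.314), -0.25 in spr-5 mutants (SE 0.80) and 1.03 in met-2 mutants (SE 0.91). The third member above N2 in double mutants was nhr-9 (NM_066149), at 2.77 (SE 1.35, DESeq2 p = 0.0399, adjusted p = 0.767) in the authors' deposited table. Its base mean was 10.8 there and only 1.62 and 0.764 in the spr-5 and met-2 tables that the authors deposited, where it had fold changes of 0.25 and 0.10 on the log2 scale. A further member, nhr-288 (NM_075194), singled out after its values were seen, had a base mean of 129 in the authors' deposited table for double mutants, against 0.876 and 0.233 in those of spr-5 and met-2 mutants. Its log2 fold change in double mutants was 1.04 (SE 1.21, DESeq2 p = 0.390) in the authors' deposited table, and its 95% interval ran from -1.33 to 3.41. The values of single libraries behind that base mean are not given. The fold change of nhr-288 is small beside the contrast in its base means. Members with almost no reads had small fold changes and standard errors too. In spr-5 mutants nhr-101 and nhr-159, at a base mean of 0.219, each had 0.15 (SE 0.61). Whether the authors' fit pulled fold changes toward 0 was not tested, so the interval may miss the size of the change. The same limit holds for the other intervals given here and for sizes compared between mutants.

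The germline RNA helicase glh-1, a marker of germ cells, was read beside these genes. Per the authors' deposited tables it was at 2.96 (SE 0.97, DESeq2 p = 0.00238, adjusted p = 0.168) in double mutants, 1.68 (SE 0.72, p = 0.0198) in met-2 mutants and 0.68 (SE 0.82) in spr-5 mutants. It was the 1 of 5 germline markers with an unadjusted p under 0.05 in double mutants, where 3 of the 5 were above 0. There glh-4 had 1.02 (SE 1.22), nos-2 -1.23 (SE 1.26) and pgl-1 -0.82 (SE 1.17) in the authors' deposited table. In met-2 mutants 3 of the 5 were above 0, with -0.24 (SE 0.90) for glh-4 and -0.40 (SE 0.59) for pgl-1 in the authors' deposited table, and in spr-5 mutants 4 of 5 were above 0. The base means of the 5 ranged from 0.817 to 607 in the authors' deposited table for double mutants, with pgl-1 lowest. The part of germ cells in the receptor values was not tested. In bulk samples, fewer cells of a type and less RNA per cell cannot be told apart.

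Below N2 in double mutants were nhr-222, nhr-172 and nhr-290. For nhr-222 (NM_071589) the authors' deposited tables gave -3.51 in double mutants (SE 1.29, DESeq2 p = 0.00637, adjusted p = 0.305), 0.98 in spr-5 mutants (SE 0.88) and 0.26 in met-2 mutants (SE 0.82). Its base mean was 14.9 in the authors' deposited table for double mutants, against 62.4 and 34.9 in those of spr-5 and met-2. nhr-222 was the only 1 of the 3 whose values lay on opposite sides of 0 in double and single mutants. For nhr-172 (NM_072532) they were -3.03 in double mutants (SE 1.36, DESeq2 p = 0.0264, no adjusted p), -1.17 in spr-5 mutants (SE 0.92) and -1.29 in met-2 mutants (SE 0.91) in the authors' deposited tables. For nhr-290 (NM_071304) the authors' deposited tables gave -2.51 (SE 1.21, DESeq2 p = 0.0387, adjusted p = 0.752), -0.73 (SE 0.83) and -1.43 (SE 0.81) for double, spr-5 and met-2 mutants. The base means of nhr-172 were between 7.81 and 10.1 and those of nhr-290 between 45.5 and 70.3 in the authors' deposited tables.

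The remaining members under an unadjusted p of 0.05 passed that threshold in 1 mutant each. nhr-140 (NM_072367) had a log2 fold change of 1.83 in spr-5 mutants (SE 0.87, DESeq2 p = 0.0352, adjusted p = 1.00), per the authors' deposited table. In met-2 and double mutants it was -0.06 (SE 0.87) and -0.18 (SE 1.19) in the authors' deposited tables. nhr-44 (NM_072912) stood at -2.01 in met-2 mutants (SE 0.84, DESeq2 p = 0.0167, adjusted p = 1.00), with 0.65 (SE 0.85) in spr-5 mutants and -0.19 (SE 1.05) in double mutants, per the authors' deposited tables. nhr-108 (NM_074586) had 1.90 in met-2 mutants (SE 0.89, DESeq2 p = 0.0336, adjusted p = 1.00), 0.42 (SE 0.90) in spr-5 mutants and 0.93 (SE 1.36) in double mutants in the authors' deposited tables. nhr-203 (NM_070808) was the most even of them. Its values in the authors' deposited tables were -1.55 in met-2 mutants (SE 0.77, DESeq2 p = 0.0432, adjusted p = 1.00), -1.29 in spr-5 mutants (SE 0.81, p = 0.113) and -1.74 in double mutants (SE 1.04, p = 0.0949). The same N2 libraries enter all 3 values of nhr-203, so they are not independent. In the WBcel235 annotation, exons of nhr-44 and nhr-108 overlap those of the genes ttc-17 and F35E8.13 on the other strand. The use of strand in counting is not given in the sources used here, so their values are uncertain.

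**Figure D2:**
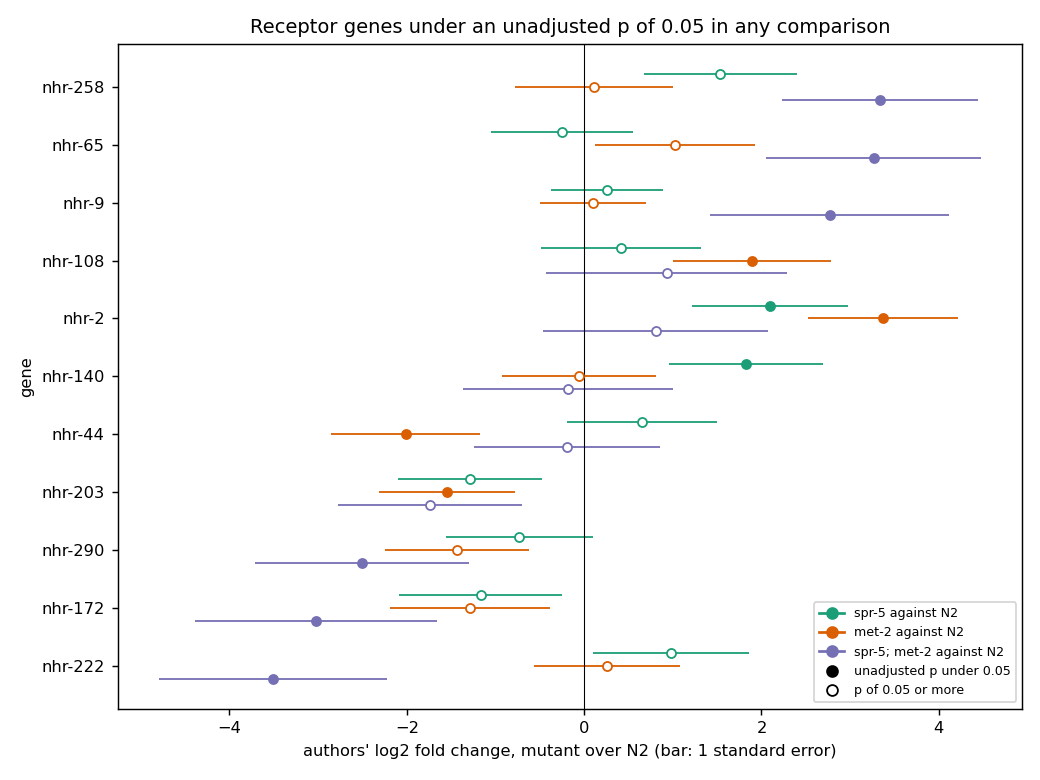
The authors' log2 fold change of mutant over N2 (x axis, bar of 1 standard error) is shown for the 11 receptor genes with an unadjusted p under 0.05 in any comparison, ordered by the value in double mutants. Filled points have a p under 0.05. nhr-258, nhr-65 and nhr-9 are highest in double mutants, nhr-222 is lowest there, and nhr-2 is highest in met-2 mutants.

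The 10 members whose summed base means were largest held 52.0% of the sum over all 238 in the authors' deposited tables. Each has 1 listed transcript, and the share rests on the low base means of other members, some of which have several transcripts and may not show their RNA. The 10 were nhr-19, nhr-138, nhr-32, nhr-3, nhr-45, nhr-69, nhr-4, nhr-10, nhr-120 and nhr-119. Per kilobase of the longest exonic length in the WBcel235 annotation, nhr-19 led with 1794 in the table of double mutants, 1725 in that of spr-5 and 1509 in that of met-2. Next came nhr-138 with 1000, nhr-3 with 847 and nhr-32 with 813 in the table of double mutants. Of the 10, 8 were also among the 10 highest per kilobase. nhr-119, with its exonic length of 3214 bases, came 22nd there. In comparison, the median base mean was 13.98 over members and 15.1 over all 16836 protein-coding genes in the authors' deposited table for double mutants. A base mean of at least 10 was reached by 132 members (55.5%) and by 55.3% of protein-coding genes there, and one of at least 50 by 65 members (27.3%) and by 34.4%.

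None of these abundant receptors had an unadjusted p under 0.05. The largest values among them were 1.07 for nhr-3 in double mutants (SE 0.99, DESeq2 p = 0.279) and -0.97 for nhr-120 in met-2 mutants (SE 0.71, p = 0.168), per the authors' deposited tables. For nhr-19 the authors' deposited tables gave 0.35 in double mutants (SE 1.00), -0.01 in spr-5 mutants (SE 0.77) and -0.20 in met-2 mutants (SE 0.71). The 95% intervals of nhr-19 ran from -1.60 to 2.30, from -1.52 to 1.50 and from -1.59 to 1.20, so changes of 1 log2 unit either way lie within each interval. nhr-45, which acts in the detoxification response to mitochondrial dysfunction, lay at -0.27 (SE 0.93), -0.07 (SE 0.73) and 0.00056 (SE 0.67) in double, spr-5 and met-2 mutants in the authors' deposited tables. Exons of nhr-19, nhr-69 and nhr-4 overlap those of mrpl-53, inx-20 and prp-18 on the other strand in WBcel235, and those of nhr-138 overlap C28D4.18 on its own strand, so their levels are uncertain.

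**Figure D3:**
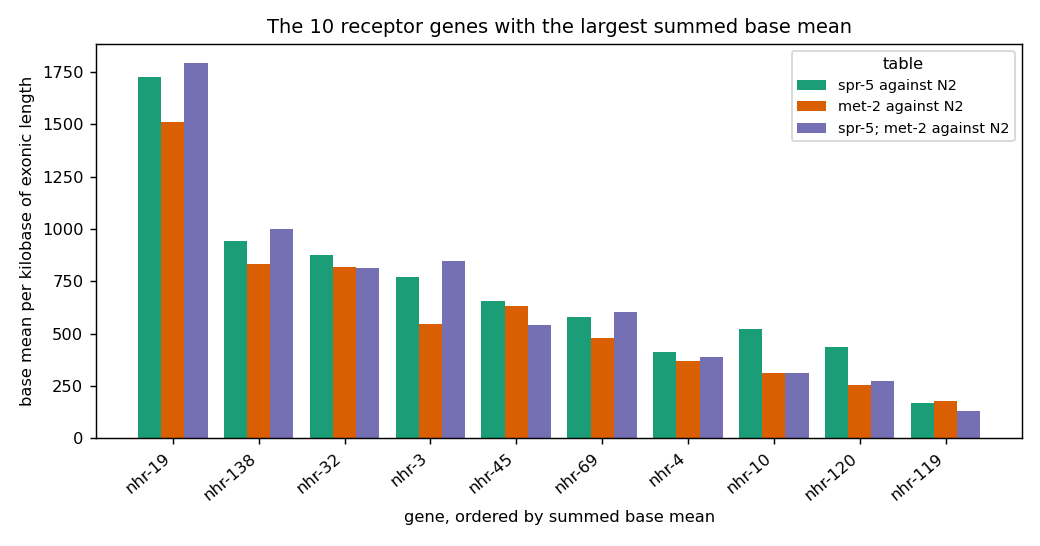
Bars give the authors' base mean per kilobase of exonic length (y axis, from 0) for the 10 receptor genes with the largest summed base means, in each of the 3 tables. nhr-19 stands highest in each table, between 1509 and 1794, and nhr-119 lowest, between 130 and 178.

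Receptors of molting and development had values on both sides of 0, with more of them above. Of 10 listed genes 9 were members, and at an unadjusted p under 0.05 nhr-2 was the only 1 higher in spr-5 and in met-2 mutants, with 0 lower in each. In double mutants 0 were higher and 0 lower. The median log2 fold change over the 9 was 0.15 in double mutants, 0.49 in spr-5 mutants and 0.15 in met-2 mutants. Of the 9, 6 were above 0 in double mutants, 8 in spr-5 mutants and 7 in met-2 mutants. Over all genes with a p the shares above 0 were 43.0%, 54.6% and 51.0% in the same order. The difference was not tested. nhr-25, the ortholog of FTZ-F1 and SF-1 that acts in molting and in epidermal and gonadal cells, was within 0.06 of 0 in each of the authors' deposited tables (0.06 in double mutants, 0.0085 in spr-5 mutants and 0.05 in met-2 mutants). nhr-85, a Rev-erb ortholog in developmental timing, had 0.61 (SE 1.05), 0.77 (SE 0.79) and 0.25 (SE 0.78) in the same order in the authors' deposited tables. nhr-6, an NR4A ortholog needed for the spermatheca, had -0.21 (SE 1.01) in double, 0.20 (SE 0.79) in spr-5 and 0.12 (SE 0.75) in met-2 mutants in the authors' deposited tables. nhr-23, a ROR ortholog that drives molting, had a base mean of at most 3.48 in the authors' deposited tables, too low to show a change. It has 4 listed transcripts, so this value may not show its RNA level. In WBcel235, exons of nhr-85 and nhr-6 overlap those of npr-14 and C48D5.3 on the other strand, so their values are uncertain.

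No receptor of fat and nutrient metabolism passed a test in any mutant. Of 12 listed genes 8 were members, and 0 had an unadjusted p under 0.05 in either direction. Their median log2 fold change was 0.14 in double mutants, -0.16 in spr-5 mutants and -0.38 in met-2 mutants. nhr-10, which activates propionate breakdown genes, had -0.27 (SE 0.97), 0.56 (SE 0.79) and -0.45 (SE 0.70) in double, spr-5 and met-2 mutants in the authors' deposited tables. For nhr-69, a relative of HNF4, the authors' deposited tables gave 0.16 (SE 0.98), -0.22 (SE 0.77) and -0.60 (SE 0.71). nhr-49, the main receptor of the fasting response in worm, had a base mean of only 2.27, 1.36 and 0.424 in the authors' deposited tables of double, spr-5 and met-2 mutants. It has 3 listed transcripts, so these values may not show its RNA level. nhr-80, nhr-66 and nhr-31 were listed at 0 in all 3.

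Among receptors of toxin, pathogen, sterol and iron responses, 4 of 6 were members and 0 had an unadjusted p under 0.05 in any mutant. The hypoxia-induced gene nhr-57, whose exons overlap those of lgc-1 on its own strand in WBcel235, had -0.91 (SE 1.00), -0.17 (SE 0.80) and 0.19 (SE 0.74) in double, spr-5 and met-2 mutants in the authors' deposited tables. nhr-14, which represses iron uptake, had 0.20 (SE 1.10) in double, -0.44 (SE 0.87) in spr-5 and -0.50 (SE 0.81) in met-2 mutants in the authors' deposited tables. nhr-8 and nhr-86 were listed at 0. The receptors with orthologs outside nematodes, a list that shares genes with those above, held 11 members of 13, with 0 under an unadjusted p of 0.05 and a median of 0.11 in double mutants, 0.12 in spr-5 mutants and 0.12 in met-2 mutants.

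Levels of the receptor genes went with the number of transcripts listed for the gene. The tables list transcripts, and 378 of them belong to 257 nhr genes, 19 of which have every transcript at 0. Of 183 transcripts that are alone in their gene, 6 were at 0 in every table. Of 102 transcripts in genes with 2, 52 were at 0, and of 93 in genes with 3 or more, 65 were at 0. Among members, a base mean of at least 10 in double mutants was reached by 62.1% of the 177 with 1 transcript, 40.5% of the 42 with 2 and 26.3% of the 19 with 3 or more. For all protein-coding genes the shares were 58.1%, 41.2% and 42.3%. A low base mean of a gene with several transcripts was therefore not read as a low level of its RNA. The part of the counting in these low values was not tested.

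Receptor genes often lie side by side. In WBcel235 there were 43 runs of 2 or more adjacent nhr genes, with 127 of the 238 members outside them, and 8 runs had 5 or more genes. Each of these 8 runs held members above and below 0 in double mutants, some at base means under 1, such as nhr-186 (0.272) and nhr-98 (0.817). Single mutants differed. All 5 members of the run from nhr-99 to nhr-106 were below 0 in spr-5 (-1.05 to -0.05) and met-2 mutants (-1.01 to -0.05). In the run from nhr-179 to nhr-238, every member with a value in met-2 mutants was below 0 there (-0.91 to -0.0039). Both runs were singled out after their values were seen, and the values of both single mutants rest on the same N2 libraries. Among all members with a p, 51.3% were above 0 in spr-5 mutants and 47.4% in met-2 mutants. Runs were not tested. The longest, of 8 genes from nhr-186 to nhr-124, ranged from -1.30 to 0.76 in double mutants in the authors' deposited table, with 2 members above 0 and 5 below. The run of 7 from nhr-161 to nhr-42 contains nhr-140, whose 1.83 in spr-5 mutants stands between -0.93 for nhr-139 and 0.83 for nhr-162, per the authors' deposited table. The run of 7 that includes nhr-18 and nhr-103 was the most abundant, with base means between 40.7 and 526 and log2 fold changes from -0.75 to 1.82 in the authors' deposited table for double mutants. Near-identical neighbours can share reads, so values of single genes in a run are uncertain.

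**Figure D4:**
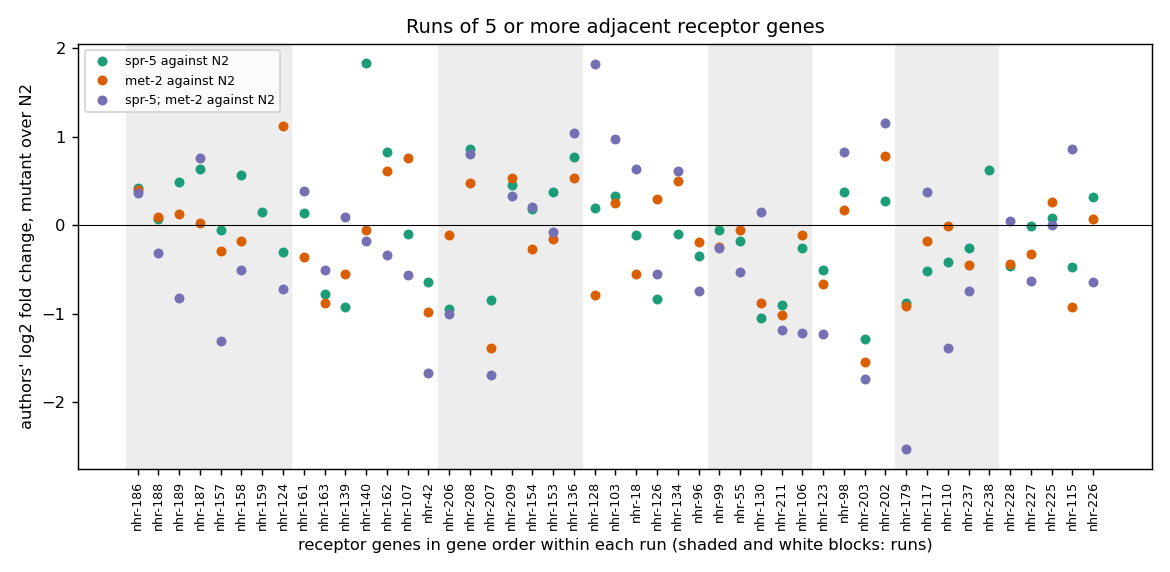
Points give the authors' log2 fold change of mutant over N2 (y axis) for the 47 members in the 8 runs of 5 or more adjacent receptor genes, in gene order (x axis), with blocks marking the runs. Each run holds values above and below 0 in spr-5; met-2, and nhr-140 in spr-5 (1.83) stands above its neighbours.

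Other genes of receptor pathways were described from fixed lists. Of 5 receptors with other names, 0 had an unadjusted p under 0.05 in any mutant. The lowest p-values among them in double mutants were those of odr-7, which specifies an olfactory neuron, and fax-1, at -1.90 (SE 1.30, DESeq2 p = 0.145) and -0.74 (SE 1.11, p = 0.504) in the authors' deposited table. Of 5 measured cofactors and enzymes of dafachronic acid synthesis, the sterol ligand pathway, 1 was higher and 0 lower in spr-5 mutants at an unadjusted p under 0.05, with 0 in met-2 and double mutants. It was daf-36, the oxygenase at the start of that synthesis, at 2.69 (SE 0.88, DESeq2 p = 0.00235, adjusted p = 1.00) in spr-5 mutants in the authors' deposited table. In double and met-2 mutants daf-36 had 0.97 (SE 1.25) and 0.33 (SE 0.91) in the authors' deposited tables. In double mutants dhs-16, a dehydrogenase of the same synthesis, had -1.51 (SE 1.36, DESeq2 p = 0.267) and the corepressor din-1 -1.09 (SE 1.10, p = 0.324) in the authors' deposited table.

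Among targets of nhr-49, nhr-80 and nhr-13, 0 of 6 had an unadjusted p under 0.05 in any mutant. In double mutants the desaturase fat-5 and the glyoxylate enzyme icl-1 had -1.85 (SE 1.34, DESeq2 p = 0.168) and -1.45 (SE 1.26, p = 0.249) in the authors' deposited table. Genes of the propionate shunt and methionine cycle gave 0 of 5 in spr-5 and double mutants and 0 of 4 in met-2 mutants. Their smallest p-values in double mutants were those of methionine synthase metr-1, at -0.60 (SE 1.19, DESeq2 p = 0.613), and hach-1, a hydrolase of the propionate shunt, at 0.36 (SE 1.15, p = 0.756) with a base mean of only 0.272, in the authors' deposited table. Of the molting genes with a p, 1 of 7 was higher in spr-5 mutants, 1 of 8 in met-2 mutants and 0 of 7 in double mutants, and 0 were lower. It was noah-2, a component of the apical extracellular matrix, at 1.79 (SE 0.88, DESeq2 p = 0.0415) in spr-5 mutants and 2.12 (SE 0.82, p = 0.00959) in met-2 mutants in the authors' deposited tables. In double mutants noah-2 had 2.13 (SE 1.22, DESeq2 p = 0.0809) and the secreted protein gene mlt-8 -2.32 (SE 1.36, p = 0.0885) in the authors' deposited table.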

How the data were processed

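Transcripts of whole starved L1 larvae were compared in 4 groups of 2 libraries. Per the submitters' processing notes, FastQC, Trimmomatic, featureCounts and DESeq2 (version 2.11.40.2) and genome build ce10 were used. The authors deposited 3 tables of 50832 RefSeq transcripts, 1 per mutant against N2, without headers. The authors' base mean, a signal, averages scaled counts. The log2 fold change and its standard error were deposited on a log2 scale. The deposited Wald score divides the fold change by its error. The deposited p-value and adjusted p-value are the authors' own.

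Symbols came from the RefSeq gene table of WBcel235, in which 46074 transcripts (90.6%) matched. That assembly is not the build of the tables, so it gave names, exonic lengths, overlaps and neighbours but no position. Medians and counts were computed with pandas 2.3.3 in Python 3.11.15. Intervals are the fold change ± 1.96 SE. They take the deposited values as they stand, and may be off if the authors' fit pulled fold changes toward 0. The Benjamini-Hochberg recomputation was tested on simulated data. No further test was run. Columns of single samples left unused numbered 0. Library depth is not given in the tables. Named genes were those called, those with the smallest unadjusted p under 0.05, the 10 highest base means, role-list members whose base mean in double mutants was 50 or more, and up to 2 genes a pathway list by p in double mutants. Named beside these, after their values were seen, were nhr-288, daf-36, receptors with low or no reads such as nhr-23 and nhr-49, and genes of the runs. Members, lists and rules were chosen with earlier results of these data known.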

Additional observations from a re-analysis of the deposited data

How the results depend on the processing

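No paired analysis was possible because only comparisons between groups are in the tables. The edgeR fit, the DESeq2 size factors and the fits without each replicate, planned in case of counts, were not run for that reason. The counts of 0 called members in each mutant were also 0 at an adjusted p under 0.01, as they must be, and after a new Benjamini-Hochberg adjustment that included every p-value of a table. In spr-5 mutants all 236 members with a p already had an adjusted p. Elsewhere the added p-values came from low base means and enlarge the correction, so this 0 was nearly fixed beforehand and adds no support. With base means of 50 or more, members at an unadjusted p under 0.05 numbered 2 in double mutants (3.08% of members, 5.26% of all genes). They numbered 1 in spr-5 mutants (1.37% and 2.40%) and 3 in met-2 mutants (4.55% and 2.39%). Without the minimum they numbered 6, 2 and 4. In double mutants those left were nhr-258 and nhr-65, with 2 higher and 0 lower. The base mean includes the mutant libraries, so a minimum depends on the change itself and favours raised genes. The counts and medians at a minimum are therefore no independent check. An unadjusted p under 0.01 left 3 in double mutants, 0 in spr-5 mutants and 1 in met-2 mutants, against 6, 2 and 4, through the stricter threshold itself. Choosing each gene's transcript within each table left the counts at 6, 2 and 4. Median log2 fold changes stayed between -0.19 and -0.0005 in double mutants, -0.10 and 0.01 in spr-5 mutants and -0.15 and -0.03 in met-2 mutants over all alternatives. In spr-5 mutants the median turned from 0.0070 to -0.06 and -0.10 when base means under 10 and under 50 were left out. The cause of that turn was not tested. Over all genes the medians at the same minimums were -0.01 and -0.02 there. With base means of 50 or more, members and all genes had medians of -0.15 and -0.01 in met-2 mutants. In double mutants these medians were -0.01 and 0.09. Members with base means of 50 or more had a median standard error of 1.01 in double mutants, 0.81 in spr-5 mutants and 0.75 in met-2 mutants, which limits what these libraries can show.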

Other observations

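Transcripts of nhr genes other than the one chosen per gene had low base means, which the choice of the largest sum favours. Those with a p-value numbered 15 in double mutants, 14 in spr-5 mutants and 17 in met-2 mutants, with median base means of 1.75, 2.61 and 2.70 in the authors' deposited tables. In each mutant 0 of them had an adjusted p under 0.05 by the authors' DESeq2, and 0 had an unadjusted p under 0.05. At base means this low these counts were nearly fixed beforehand and say nothing about changes of those transcripts. Of the 238 members, 14 are represented by a non-coding (NR) accession, among them nhr-114, a receptor of the vitamin B12 response, with a base mean of 2.82 in the authors' deposited table for double mutants. In the same annotation as above, 37 of the 238 members have exons that overlap those of another protein-coding gene.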
